A study of Homo sapiens with 9 samples.

Results

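The genes described here are the 10 that make and break down sulfatide or supply its sulfate: GAL3ST1, ARSA, SUMF1, SUMF2, PAPSS1, PAPSS2, SLC35B2, SLC35B3, SLC26A1 and SLC26A2. They were chosen by name, with earlier results of these data known, and each matched a single gene identifier among the 62703 in the count files. HepG2, an established human hepatocellular carcinoma cell line, was left untreated (control) or given eliglustat at 20 µM or 30 µM for 72 h. Eliglustat inhibits glucosylceramide synthase, the enzyme encoded by UGCG. RNA sequencing gave 3 libraries per group, with no statement in the labels that replicates were grown separately, and the p-values therefore reflect only how far these libraries vary, which may be technical.

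Sulfatide is galactosylceramide that carries a sulfate on its galactose. It is made in the Golgi by the sulfotransferase GAL3ST1, which takes the sulfate from the activated donor PAPS, and it is broken down in lysosomes by arylsulfatase A, the product of ARSA. The same transferase also sulfates lactosylceramide, a product of the glucosylceramide branch that eliglustat blocks. Sulfate enters cells through anion exchangers such as SLC26A1 and SLC26A2, is built into PAPS in the cytosol by PAPSS1 and PAPSS2, and reaches the Golgi lumen through the carriers SLC35B2 and SLC35B3. Sulfatases work only after a cysteine in their active site is turned into formylglycine by SUMF1, an enzyme that its relative SUMF2 binds and inhibits.

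GAL3ST1 fell 2.31-fold and ARSA rose 1.24-fold at 30 µM against control, but the ARSA rise was not past the test when libraries were scaled by size alone. At 20 µM ARSA rose and GAL3ST1 was not past the test. Relative to control, 20 µM raised 5 of the 10 genes (ARSA, SUMF1, SUMF2, SLC26A1 and SLC26A2) and lowered 0. Of the 17623 genes tested, 34.2% changed in that comparison, 17.2% upward and 16.9% downward. Treated and control libraries were fully separate for 6 of the 10 genes and for 44.5% of all genes. Relative to control, 30 µM raised 3 genes (ARSA, SUMF2 and SLC26A2) and lowered 4 (GAL3ST1, PAPSS1, SLC35B3 and SLC26A1). With library size alone those counts were 0 and 5, and with upper-quartile factors 2 and 5. Here 60.8% of the genes tested changed, 29.5% upward and 31.3% downward (5192 and 5515 genes, against 3530 and 8022 with library size alone), and groups did not overlap for 9 of the 10 genes and 65.0% of all genes. Between the doses, 8 of the 10 genes were lower at 30 µM than at 20 µM (9 with library size alone) and 0 were higher. Over all genes 57.0% changed between the doses, 28.0% upward and 28.9% downward, and groups did not overlap for 9 of the 10 genes and 61.1% of all genes. The counts of 0 were also 0 at an unadjusted p under 0.05 in edgeR and with DESeq2 or limma voom. The 10 genes had a median log2 change of 0.23 for 20 µM over control, 0.02 for 30 µM over control and -0.26 for 30 µM over 20 µM, beside 0.01, -0.04 and -0.03 for the genes tested. The comparisons share libraries, so their counts are not separate evidence.

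A gene is said to have risen or fallen only where its adjusted p was under 0.05 in edgeR's quasi-likelihood test. Levels are CPM, a gene's share of the library's counts on the usual per-million scale, after TMM scaling, and changes are log2 ± SE. Depth ran from 21103757 to 26782810 counts assigned to genes, and scaling factors ran from 0.905 to 0.916 at 30 µM, 1.04 to 1.05 at 20 µM and 1.05 to 1.06 in controls. Scaling by library size alone moves the median of all genes by -0.21 at 30 µM against control. The calls and list counts that it changes in that comparison are given beside them. Control library 1, 20 µM library 3 and 30 µM library 3 deviated from their group means together (correlations 0.33, 0.34 and 0.35 across genes), and results lost without these 3 are marked. UGCG was at 88.6 ± 3.93 CPM at 30 µM and 43.2 ± 2.9 CPM at 20 µM, against 23.7 ± 1.51 CPM in controls (SD, n = 3). All 10 hepatocyte markers of a fixed list passed the filter on low counts and summed to 36319 to 36769 CPM at 30 µM and 37138 to 37536 CPM at 20 µM, against 34079 to 34893 CPM in controls. Within that list ALB was at 435 to 446 CPM at 30 µM against 692 to 719 CPM in controls, and AFP at 828 to 866 against 1386 to 1461 CPM. APOH was at 396 to 402 CPM at 30 µM against 790.0 to 800.1 CPM in controls, HNF4A at 497 to 516 against 682 to 691 CPM, and APOB, which is most of the sum, at 24701 to 25653 against 20831 to 21238 CPM. APOA1 was at 1659 to 1799 against 1927 to 2056 CPM, and TF at 1911 to 1997 against 2262 to 2391 CPM. FGB was at 434 to 439.9 against 622 to 667 CPM. TTR was higher, at 50 to 54.7 against 23.8 to 28.4 CPM, and SERPINA1 overlapped, at 4786 to 5153 against 4552 to 5169.6 CPM. The leukocyte genes PTPRC and MS4A1 and the fibroblast genes COL1A2 and DCN were at 0 counts in all 9 libraries. Of 6 fibroblast markers 1 passed the filter, PDGFRB, and the list summed to 2.88 to 3.17 CPM at 30 µM and 1.11 to 1.56 CPM at 20 µM, against 1.07 to 1.47 CPM in controls. The 4 endothelial markers summed to 3.58 to 4.4, 4.98 to 6.65 and 4.76 to 5.83 CPM in the same order of groups, and the 5 leukocyte markers to 0.752 to 1.27, 0.871 to 1.35 and 1.07 to 1.52 CPM, with per-million values here unscaled. Their part in the results was not tested. In bulk libraries, fewer cells with a transcript and less of it per cell cannot be told apart.

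**Figure D1:**
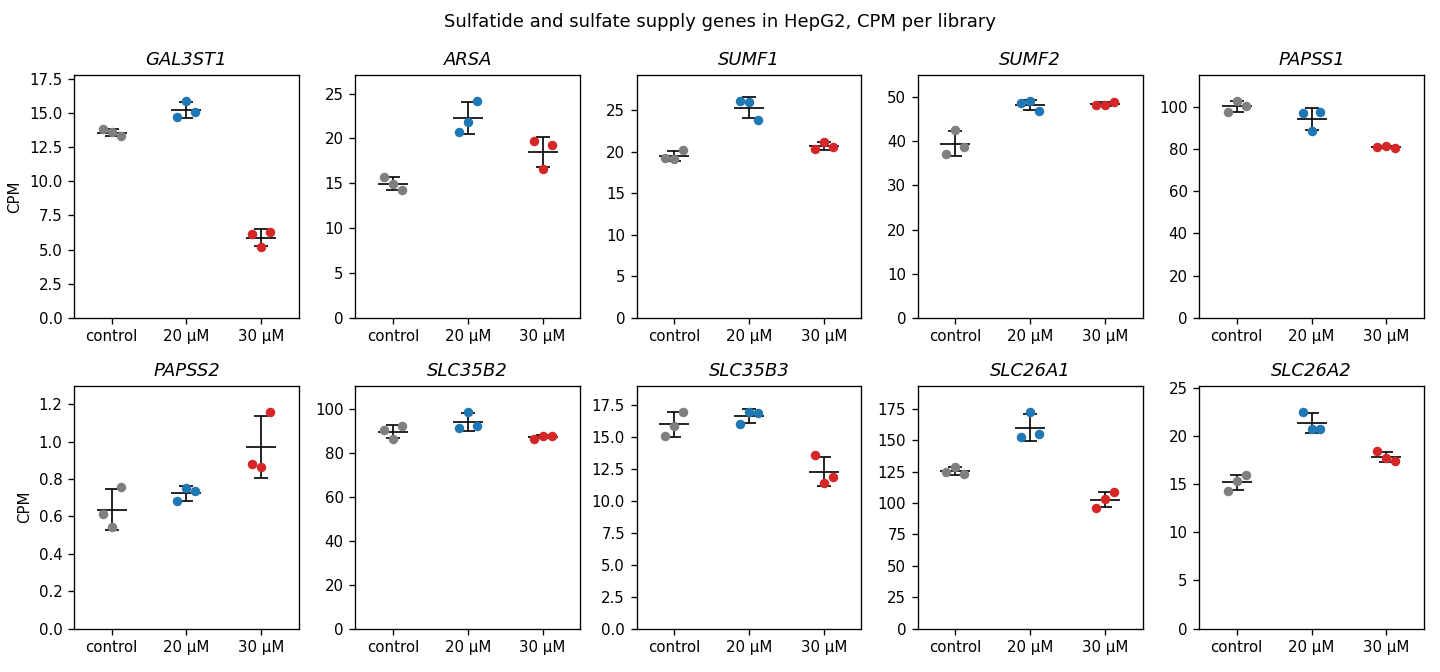
CPM of the 10 genes in each library (points) at 0 (control), 20 and 30 µM eliglustat, with the mean and SD of 3 libraries (bars). GAL3ST1 at 30 µM lies between 5.2 and 6.28 CPM, under every library of the other groups, and SLC26A1 is highest at 20 µM and lowest at 30 µM.

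GAL3ST1, the sulfotransferase that completes sulfatide, had the largest change of the 10 genes. It stood at 13.8, 13.6 and 13.3 CPM in the control libraries, 14.7, 15.9 and 15.1 CPM at 20 µM and 6.16, 5.2 and 6.28 CPM at 30 µM. The 30 µM libraries lay far under all others, while every 20 µM library lay slightly above every control. At 30 µM it averaged 5.88 ± 0.592 CPM against 13.5 ± 0.276 CPM in controls (SD, n = 3), a 2.31-fold fall (log2 -1.21 ± 0.1, adjusted p = 1.77e-12). Against 20 µM the fall at 30 µM was 2.59-fold (log2 -1.37 ± 0.0995, adjusted p = 8.59e-14). The change at 20 µM against control was log2 0.17, with a 95% interval from -0.01 to 0.35 (adjusted p = 0.154). GAL3ST1 lies on chromosome 22 at 30554635-30574587 (GRCh38, GENCODE 29), on the minus strand, and no other annotated gene overlaps it there.

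RefSeq lists 3 starts for GAL3ST1, and gene counts do not tell which of them the cells used. The window at the outermost start, chr22:30574616-30574915 on the minus strand of GRCh38.p14, is printed because it belongs to the gene that changed most. It runs from 250 bases before to 50 bases after the start. Capitals mark the GC box GGGCGG, searched on both strands, which occurs 4 times there.
GAL3ST1: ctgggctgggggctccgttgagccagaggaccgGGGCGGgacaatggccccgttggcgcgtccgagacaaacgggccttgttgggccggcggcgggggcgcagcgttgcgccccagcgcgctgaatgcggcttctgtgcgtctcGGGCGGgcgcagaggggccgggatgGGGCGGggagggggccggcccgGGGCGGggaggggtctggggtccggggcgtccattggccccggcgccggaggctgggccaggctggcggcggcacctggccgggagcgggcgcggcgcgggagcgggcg
The window is 80% G or C, against a median of 58.7% over all promoter windows, and 45% of all 35116 windows hold at least a single GGGCGG. The other GAL3ST1 windows, at chr22:30572817-30573116 and chr22:30564852-30565151, hold none and are 58.7% and 57.7% G or C.

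ARSA, the lysosomal sulfatase that removes the sulfate of sulfatide, moved the other way from GAL3ST1 at 30 µM. It had 15.7, 14.9 and 14.3 CPM in controls, 20.7, 21.8 and 24.2 CPM at 20 µM and 19.7, 16.6 and 19.3 CPM at 30 µM. No treated library was as low as any control, and the 20 µM libraries were the highest. ARSA rose 1.49-fold at 20 µM (log2 0.57 ± 0.0811, adjusted p = 7.99e-07) and 1.24-fold at 30 µM against control (log2 0.31 ± 0.0827, adjusted p = 0.00176). The rise at 30 µM was not past the test when scaled by library size alone (log2 0.10, adjusted p = 0.309). At 30 µM against 20 µM, ARSA fell 1.2-fold (log2 -0.26 ± 0.0802, adjusted p = 0.00544). That fall was lost without 20 µM library 3 (adjusted p = 0.0572) or 30 µM library 2 (adjusted p = 0.0687). ARSA lies on chromosome 22 at 50622754-50628173, on the minus strand, with no overlapping gene annotated.

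Set against ARSA in the same library, GAL3ST1 was lower at 20 µM than in controls and lower again at 30 µM. At 20 µM GAL3ST1 itself was not lower, with 14.7 to 15.9 CPM against 13.3 to 13.8 CPM in controls. ARSA was higher there, with 20.7 to 24.2 CPM against 14.3 to 15.7 CPM in controls. The ratio of GAL3ST1 to ARSA, each as CPM per kb of exon, was 0.852, 0.886 and 0.901 in controls, 0.687, 0.708 and 0.608 at 20 µM and 0.304, 0.304 and 0.316 at 30 µM. The 3 groups did not overlap in this ratio. Because both genes are read from the same library, it does not depend on how libraries were scaled. It is given as a description, since the genes were chosen with their changes known.

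**Figure D2:**
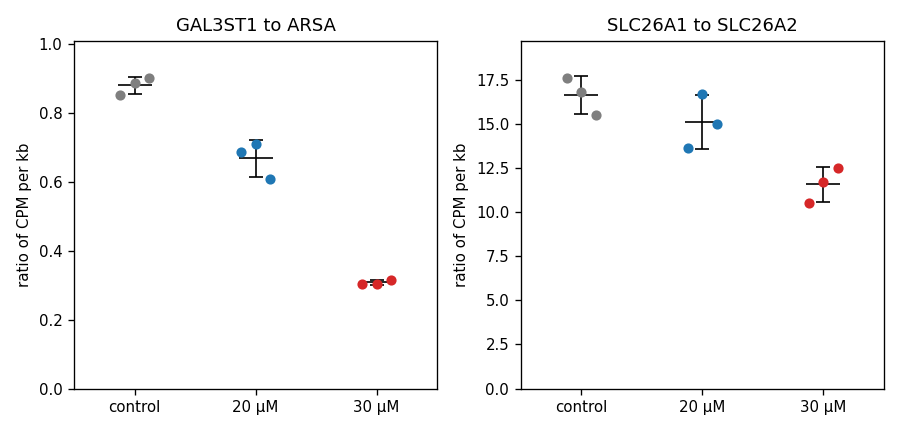
Ratio of CPM per kb of exon in each library (points), with the mean and SD of 3 libraries (bars), for GAL3ST1 to ARSA (left) and SLC26A1 to SLC26A2 (right). The GAL3ST1 to ARSA ratio averages 0.88 in controls, 0.668 at 20 µM and 0.308 at 30 µM.

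Both SUMF genes rose at 20 µM, and at 30 µM against control SUMF2 rose while SUMF1 was not past the test. SUMF1, the formylglycine-generating enzyme, had 19.2, 19.1 and 20.2 CPM in controls, 26.1, 25.9 and 23.8 CPM at 20 µM and 20.3, 21.2 and 20.6 CPM at 30 µM. The 20 µM libraries stood above all others, and the 30 µM libraries lay just above the controls. SUMF1 rose 1.29-fold at 20 µM (log2 0.37 ± 0.068, adjusted p = 4.52e-05). At 30 µM against control its log2 change was 0.09, with a 95% interval from -0.06 to 0.23 (adjusted p = 0.297), and at 30 µM against 20 µM it fell by 0.28 ± 0.0683 on the log2 scale (adjusted p = 5.86e-04). SUMF1 lies on chromosome 3 at 3700814-4467281, on the minus strand, and shares 2.73% of its exon bases with LRRN1 on the opposite strand.

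SUMF2, the relative that binds SUMF1, rose at both doses. It had 37.1, 42.6 and 38.8 CPM in controls, 48.7, 49.2 and 47 CPM at 20 µM and 48.3, 48.3 and 49 CPM at 30 µM. Every treated library was above every control, and the doses overlapped. The rise was 1.22-fold at 20 µM (log2 0.29 ± 0.0538, adjusted p = 4.82e-05) and 1.23-fold at 30 µM (log2 0.30 ± 0.054, adjusted p = 1.28e-05). Scaled by library size alone, the 30 µM rise was not past the test (log2 0.09, adjusted p = 0.155). Between 30 µM and 20 µM the log2 change was 0.01, with a 95% interval from -0.10 to 0.12 (adjusted p = 0.919), and its sign turned with library size alone (log2 -0.19, adjusted p = 0.00346). SUMF2 lies on chromosome 7 at 56064002-56080670, on the plus strand, and 9.46% of its exon bases are shared with PHKG1 on the opposite strand, which had at most 21 counts in a library.

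Of the PAPS synthases, PAPSS1 was by far the more abundant and fell at 30 µM, and PAPSS2 was near the lower limit of counting. PAPSS1, a PAPS synthase, had 97.6, 103 and 100.4 CPM in controls, 97.4, 88.5 and 97.7 CPM at 20 µM and 81, 81.5 and 80.7 CPM at 30 µM. The 30 µM libraries were lowest and nearly equal, and the 20 µM libraries overlapped the controls. PAPSS1 fell 1.24-fold at 30 µM against control (log2 -0.31 ± 0.0435, adjusted p = 1.85e-07) and 1.17-fold against 20 µM (log2 -0.22 ± 0.0437, adjusted p = 5.09e-05). At 20 µM against control the log2 change was -0.09 (95% interval -0.17 to 0.00, adjusted p = 0.121). PAPSS2, the other PAPS synthase, had 17, 12 and 21 counts in controls, 18 in each 20 µM library and 19, 21 and 28 counts at 30 µM. Per kb of exon, PAPSS1 stood 189.6 ± 34.3 times above PAPSS2 in controls, 154 ± 15.1 times at 20 µM and 100.1 ± 15.8 times at 30 µM (SD, n = 3). With so few counts the change of PAPSS2 at 30 µM against control spanned log2 -0.09 to 1.28 (95% interval, adjusted p = 0.127). PAPSS1 lies on chromosome 4 at 107590276-107720452, on the minus strand, and PAPSS2 on chromosome 10 at 87659613-87747705, on the plus strand, with 3.58% of its exon bases shared with the antisense gene AL138767.1.

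The Golgi carriers for PAPS differed in size of change at 30 µM. SLC35B2 had 90.7, 86.5 and 92.3 CPM in controls, 91.5, 99 and 92.4 CPM at 20 µM and 86.7, 87.7 and 88.1 CPM at 30 µM. Its controls overlapped both treated groups. The log2 change of SLC35B2 was 0.07 at 20 µM (95% interval -0.02 to 0.15, adjusted p = 0.228) and -0.04 at 30 µM against control (-0.13 to 0.05, adjusted p = 0.443). With library size alone or upper-quartile factors the 30 µM value was past the test downward (adjusted p = 5.26e-06 and 0.0402). At 30 µM against 20 µM SLC35B2 fell 1.08-fold (log2 -0.11 ± 0.0426, adjusted p = 0.0304). That call was lost with DESeq2 (0.153), median-ratio factors (0.0844), no low-count filter (0.0983), without 20 µM library 2 (0.173) and without 30 µM library 1 (0.1), 2 (0.0698) or 3 (0.0545), each an adjusted p.

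SLC35B3, the other PAPS carrier, had 15.1, 15.9 and 17 CPM in controls, 16, 17 and 16.9 CPM at 20 µM and 13.6, 11.4 and 11.9 CPM at 30 µM. Only the 30 µM libraries stood apart, under all others. SLC35B3 fell 1.3-fold at 30 µM against control (log2 -0.38 ± 0.0866, adjusted p = 2.64e-04) and 1.36-fold against 20 µM (log2 -0.44 ± 0.0866, adjusted p = 4.66e-05). At 20 µM against control its log2 change was 0.06 (95% interval -0.11 to 0.23, adjusted p = 0.641). SLC35B2 lies on chromosome 6 at 44254096-44257890 and SLC35B3 on the same chromosome at 8411463-8435611, both on the minus strand.

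**Figure D3:**
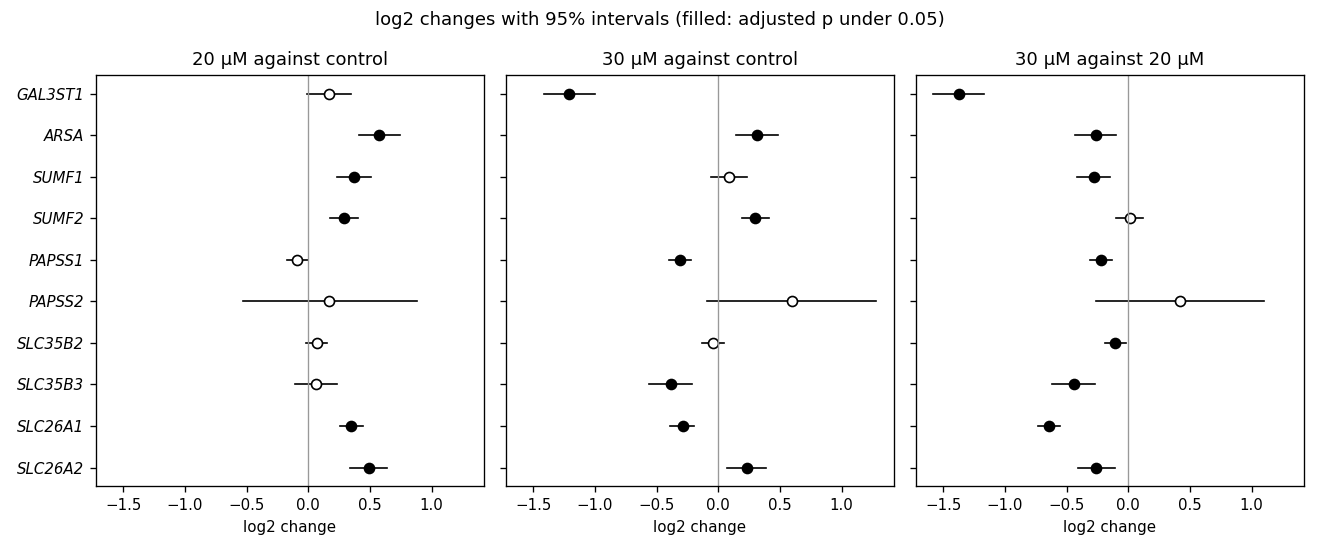
log2 changes (points) with 95% intervals (lines) for the 10 genes in the 3 comparisons, filled where the adjusted p was under 0.05. The largest value in size is that of GAL3ST1 at 30 µM against 20 µM, -1.37, and the widest intervals are those of PAPSS2.

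The sulfate importers rose together at 20 µM and lay on opposite sides of control at 30 µM. SLC26A1, an exchanger of sulfate and oxalate of the liver cell surface, had 125, 129 and 123 CPM in controls, 153, 173 and 155 CPM at 20 µM and 96.5, 103 and 109 CPM at 30 µM. The 3 groups did not overlap. SLC26A1 rose 1.27-fold at 20 µM against control (log2 0.35 ± 0.0454, adjusted p = 3.83e-07). It fell 1.22-fold at 30 µM against control (log2 -0.29 ± 0.0464, adjusted p = 3.20e-06) and 1.56-fold at 30 µM against 20 µM (log2 -0.64 ± 0.0461, adjusted p = 7.95e-13). SLC26A1 lies on chromosome 4 at 979073-993440, on the minus strand, and overlaps IDUA on the opposite strand, with which it shares 12.4% of its exon bases. IDUA, a lysosomal iduronidase named after its values were seen, was at 2.16 ± 0.455 CPM at 30 µM and 1.54 ± 0.369 CPM at 20 µM, against 0.983 ± 0.258 CPM in controls (SD, n = 3), and its rise at 30 µM was past the test (log2 1.15, adjusted p = 4.57e-04). The part of IDUA reads in the values of SLC26A1 was not tested. Whether reads were assigned by strand is not given in the sources used here.

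SLC26A2, a widely expressed sulfate exchanger whose loss causes skeletal dysplasia, had 14.3, 15.3 and 15.9 CPM in controls, 22.5, 20.7 and 20.7 CPM at 20 µM and 18.4, 17.7 and 17.4 CPM at 30 µM. Here too the 3 groups did not overlap, but the 30 µM libraries lay between the others. SLC26A2 rose 1.4-fold at 20 µM (log2 0.49 ± 0.0756, adjusted p = 3.34e-06) and 1.17-fold at 30 µM against control (log2 0.23 ± 0.0772, adjusted p = 0.0103). The 30 µM rise was not past the test without control library 1 (adjusted p = 0.0658), without the 3 libraries that deviate together (0.0744), with upper-quartile factors (0.0579) or with library size alone (log2 0.02, adjusted p = 0.834). At 30 µM against 20 µM it fell 1.2-fold (log2 -0.26 ± 0.0752, adjusted p = 0.00373). The ratio of SLC26A1 to SLC26A2 per kb was 10.5, 11.7 and 12.5 at 30 µM, against 17.6, 16.8 and 15.5 in controls. SLC26A2 lies on chromosome 5 at 149960737-149993455, on the plus strand, and shares 2.86% of its exon bases with TIGD6 on the opposite strand.

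Promoter windows from RefSeq (GRCh38.p14, 250 bases before to 50 after a start) were available for 8 of the 10 genes, in 13 windows. ARSA and PAPSS2 had no entry. The letters CACGTG, the palindromic E-box core that factors of the MYC and TFE families can bind, occurred in 3 windows, those of SUMF1, SLC26A2 and SLC35B2. Over all 35116 windows of this length, 7.26% hold it. The 3 windows are printed with CACGTG in capitals, since SUMF1 and SLC26A2 both rose at 20 µM while SLC35B2 was not past the test there. They lie at chr3:4467220-4467519 (minus strand), chr5:149960508-149960807 (plus strand) and chr6:44257239-44257538 (minus strand, where the motif occurs 2 times). The other SLC35B2 windows, at chr6:44257479-44257778 and chr6:44257841-44258140, hold no CACGTG.
SUMF1: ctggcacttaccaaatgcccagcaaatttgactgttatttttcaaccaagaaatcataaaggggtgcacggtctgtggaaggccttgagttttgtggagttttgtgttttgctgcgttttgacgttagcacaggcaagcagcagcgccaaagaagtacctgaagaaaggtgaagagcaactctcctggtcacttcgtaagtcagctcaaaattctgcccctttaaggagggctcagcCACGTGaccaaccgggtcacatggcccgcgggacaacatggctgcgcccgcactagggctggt
SLC26A2: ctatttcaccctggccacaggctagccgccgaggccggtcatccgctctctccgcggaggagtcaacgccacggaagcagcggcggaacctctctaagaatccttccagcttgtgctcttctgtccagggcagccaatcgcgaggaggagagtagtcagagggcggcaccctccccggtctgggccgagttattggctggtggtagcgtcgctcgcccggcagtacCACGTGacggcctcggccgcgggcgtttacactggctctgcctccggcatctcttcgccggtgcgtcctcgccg
SLC35B2: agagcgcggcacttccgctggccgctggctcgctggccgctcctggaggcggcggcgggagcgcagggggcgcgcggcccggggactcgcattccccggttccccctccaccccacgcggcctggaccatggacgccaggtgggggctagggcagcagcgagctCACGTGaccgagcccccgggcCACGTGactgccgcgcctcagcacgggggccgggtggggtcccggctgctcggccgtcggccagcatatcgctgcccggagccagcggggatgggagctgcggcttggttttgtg
SUMF2 and SLC26A1, which also rose at 20 µM, have no CACGTG in their windows. GGGCGG occurred in 7 of the 13 windows, in 6 genes, and CCAAT in 4 windows, in 3 genes, where 45% and 34.6% of all windows hold them. GTAAACA, TGATGNAA, TGACGTCA and TATAAA, each searched on both strands, occurred in 0 of the 13 windows, and 3.42%, 3.62%, 1.85% and 11.5% of all windows hold them. The windows of SLC35B3 overlap each other, so their GGGCGG matches are the same sites. Matches of different motifs shared a base 0 times in these windows. A match of letters does not show that a factor binds there.

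Per kb of exon, the members spanned a wide range of levels. In controls SLC35B2 was highest at 38 ± 1.27 CPM per kb, followed by SLC26A1 at 29.3 ± 0.671 and PAPSS1 at 28.9 ± 0.849, and the last 2 overlapped (SD, n = 3). SUMF2 stood at 9.63 ± 0.686, SLC35B3 at 5.65 ± 0.331, ARSA at 5.11 ± 0.248 and GAL3ST1 at 4.49 ± 0.0913 CPM per kb, with only SLC35B3 and ARSA overlapping. SUMF1 at 2.81 ± 0.0898, SLC26A2 at 1.76 ± 0.0967 and PAPSS2 at 0.156 ± 0.0267 CPM per kb closed the order. At 30 µM, GAL3ST1 was at 1.95 ± 0.196 CPM per kb and overlapped SLC26A2 at 2.07 ± 0.0598, leaving only PAPSS2 below them. At 20 µM, SLC26A1 at 37.3 ± 2.54 CPM per kb overlapped SLC35B2 at 39.9 ± 1.73.

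**Figure D4:**
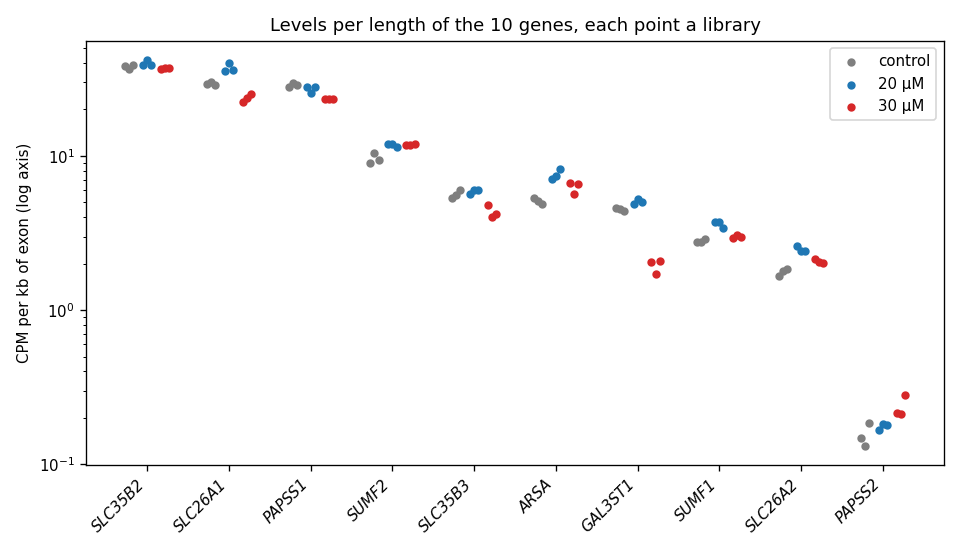
CPM per kb of exon (log axis) of the 10 genes in each library, ordered by their mean in controls, with control, 20 µM and 30 µM side by side. The order runs from SLC35B2, at 38 CPM per kb in controls, to PAPSS2, at 0.156.

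Of the enzymes that make the substrates of GAL3ST1, those of lactosylceramide could be followed. B4GALT5, a lactosylceramide synthase, was at 382 ± 3.96 CPM at 30 µM and 218 ± 0.454 CPM at 20 µM, against 123 ± 2.6 CPM in controls (SD, n = 3). It rose by log2 1.63 at 30 µM and 0.83 at 20 µM against control (adjusted p = 7.35e-29 and 4.77e-19). Its relative B4GALT6, named after its values were seen, had log2 0.13 at 30 µM and 0.12 at 20 µM (adjusted p = 0.139 and 0.224). UGT8, which makes galactosylceramide, had at most 1 count in a library and GALC, which degrades it, at most 2, and neither passed the filter on low counts. Whether these low counts depend on the annotation used for counting was not tested. PSAP, named after its values were seen, encodes the saposin precursor from which the activator of arylsulfatase A is cut. It was at 989 ± 9.79 CPM at 30 µM and 811 ± 24 CPM at 20 µM, against 613 ± 9.3 CPM in controls (SD, n = 3), with log2 rises of 0.69 and 0.40 (adjusted p = 1.44e-19 and 1.98e-12). A list of 13 genes joined those of galactosylceramide with partners and with genes of the glucosylceramide branch, such as UGCG. Of these 10 were tested, and UGT8, GALC and FA2H were not. At 20 µM 7 rose, UGCG among them, and 0 fell, where 17.2% and 16.9% of all genes tested did. At 30 µM against control 7 rose, UGCG again among them, and 1 fell, where 29.5% and 31.3% of all genes tested did. Library size alone left the 30 µM counts at 7 and 1. The faller, GM2A, a lysosomal lipid activator protein, was at 85.7 ± 3.18 CPM at 30 µM against 110.2 ± 4.19 CPM in controls (SD, n = 3; log2 -0.36).

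Other users of PAPS were counted in lists chosen with earlier results of these data known. Of 36 other Golgi sulfotransferases and tyrosine sulfotransferases, 19 were tested, with 5 higher and 1 lower at 20 µM against control (median log2 0.03) and 4 higher and 5 lower at 30 µM (median -0.05). With library size alone the 30 µM counts were 4 higher and 14 lower (median -0.26). The shares of all genes called, given above, are the background for the counts of both lists in this paragraph. NDST1, which sulfates heparan sulfate, rose by log2 0.33 at 20 µM and 0.87 at 30 µM (adjusted p = 1.20e-08 and 4.21e-20). CHST9, which sulfates N-acetylgalactosamine, fell by 0.57 at 20 µM and by 1.21 at 30 µM on the log2 scale (adjusted p = 1.76e-05 and 4.64e-12). CHST13, a chondroitin sulfotransferase, rose at 20 µM (log2 0.25, adjusted p = 2.47e-04) and fell at 30 µM against control (log2 -0.52, adjusted p = 7.55e-10). Of 12 cytosolic sulfotransferases, 8 were tested, with 3 higher and 0 lower at 20 µM (median 0.43, and 2 higher with library size alone). At 30 µM against control 1 was higher and 4 lower (median -0.29, and -0.50 with library size alone, which gave the counts 1 and 4). SULT2A1, which sulfates steroids and bile acids, was at 67.6 ± 1.65 CPM at 30 µM and 123 ± 6.37 CPM at 20 µM, against 85.3 ± 2.03 CPM in controls (SD, n = 3). It rose at 20 µM (log2 0.53, adjusted p = 7.48e-12) and fell at 30 µM against control (log2 -0.34, adjusted p = 5.26e-08).

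Other sulfatases, which SUMF1 also activates, changed in both directions, and their balance at 30 µM depended on the scaling. Of 16, 12 were tested, with 6 higher and 1 lower at 20 µM (median log2 0.17) and 6 higher and 2 lower at 30 µM against control (median 0.13). The shares of all genes tested were 17.2% higher and 16.9% lower at 20 µM, and 29.5% and 31.3% at 30 µM. With library size alone the 30 µM counts were 4 higher and 5 lower (median -0.08). Between the doses, 3 were higher and 3 lower at 30 µM than at 20 µM (median -0.05), near the 28.0% and 28.9% of all genes tested. That balance also depended on the scaling, with 2 higher and 6 lower with library size alone (median -0.24) and 3 and 5 with upper-quartile factors. The largest changes at 30 µM against control were those of IDS, upward by log2 2.61 (adjusted p = 3.24e-14), and ARSI, downward by 0.77 (adjusted p = 7.58e-15). IDS was low, at 6.75 ± 0.419 CPM at 30 µM against 1.1 ± 0.171 CPM in controls (SD, n = 3). At 20 µM IDS rose by log2 1.11 and ARSI fell by 0.26 (adjusted p = 3.68e-05 and 1.02e-04). ARSB, a lysosomal sulfatase of dermatan sulfate, had log2 0.07 at 20 µM (adjusted p = 0.0826) and rose by 0.61 at 30 µM (adjusted p = 3.18e-17). SULF2, which trims heparan sulfate outside the cell, had log2 0.07 at 20 µM (adjusted p = 0.15) and fell by 0.55 at 30 µM on the log2 scale (adjusted p = 2.60e-14).

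Genes that form sulfate from cysteine or clear the by-product of PAPS changed in both directions. Of 13, all were tested, with 5 higher and 2 lower at 20 µM (median log2 0.16) and 8 higher and 5 lower at 30 µM against control (median 0.28). Among all genes tested, 17.2% were higher and 16.9% lower at 20 µM, and 29.5% higher and 31.3% lower at 30 µM. With library size alone the 30 µM counts were 4 higher and 5 lower (median 0.07). The largest rises at 30 µM were those of GOT1, a cytosolic aspartate aminotransferase, by log2 1.32 (adjusted p = 8.23e-24), ENPP1, an ectonucleotidase, by 1.21 (adjusted p = 1.31e-23), and SQOR, the mitochondrial sulfide oxidase, by 1.15 (adjusted p = 5.11e-07). At 20 µM against control GOT1 and ENPP1 rose by log2 0.19 and 0.21 (adjusted p = 3.47e-04 and 4.28e-05), and SQOR had log2 0.16 (adjusted p = 0.546). SUOX, the sulfite oxidase that forms sulfate, had 18.9, 19.3 and 20.5 CPM at 30 µM, against 51.5, 51.3 and 49.3 CPM in controls, a fall by 1.37 ± 0.057 on the log2 scale (adjusted p = 2.20e-20). At 20 µM SUOX had log2 -0.03 (adjusted p = 0.664). CDO1, the cysteine dioxygenase, rose at 20 µM (log2 0.37, adjusted p = 1.85e-05) and fell at 30 µM against control (log2 -0.70, adjusted p = 1.08e-10). BPNT1, a cytosolic phosphatase of the PAPS by-product, fell by 0.20 at 20 µM and by 0.44 at 30 µM on the log2 scale (adjusted p = 0.00935 and 2.48e-07). Its Golgi relative BPNT2, named after its values were seen, had log2 0.10 at 20 µM (adjusted p = 0.0514) and rose by 0.59 at 30 µM (adjusted p = 7.87e-15).

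Of 11 other sulfate carriers, 4 were tested, with 2 higher and 1 lower at 20 µM against control (median log2 0.37). At 30 µM against control 1 was higher and 1 lower (median 0.25, and 0.04 with library size alone, which gave 1 higher and 2 lower). Of all genes tested, 17.2% were higher and 16.9% lower at 20 µM, and 29.5% and 31.3% at 30 µM. SLC26A11, a sulfate transporter, rose by log2 0.53 at 20 µM and 0.74 at 30 µM (adjusted p = 2.70e-07 and 5.63e-11). SLC25A10, a mitochondrial carrier of dicarboxylates and sulfate, fell by 0.34 at 20 µM and by 1.25 at 30 µM on the log2 scale (adjusted p = 6.43e-04 and 1.10e-14). SLC26A6, an anion exchanger, rose at 20 µM (log2 0.22, adjusted p = 0.00133) and had log2 0.03 at 30 µM against control (adjusted p = 0.707), a value past the test downward with library size alone (log2 -0.18, adjusted p = 0.0034).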

How the data were processed

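The authors deposited a table of raw counts for each library. The submitters' processing notes name FastQC, STAR 2.7.10a, HTSeq and hg38. Neither the strand setting nor the annotation release is stated in the sources used here. The labels name polyA RNA, but their protocol has ribosomal depletion and an extraction kit made for fixed tissue. A lower dose in the growth protocol was not analysed here, and that protocol adds an incubation after treatment without saying for which assay. HTSeq's closing totals were left out of the genes. Those for no feature, ambiguous and not uniquely aligned records made up 40.6% to 44% of their sum with the counts in genes.

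Of 62703 identifiers, 62686 had a symbol and 58264 a GENCODE 29 position. Exon lengths are unions of GENCODE 29 exons. In R 4.3.3, filterByExpr kept 17623 genes with 99.9% of counts, which were TMM-scaled and tested with edgeR 4.0.16 (robust quasi-likelihood, a mean per group over 9 libraries, threshold 0.05), with Benjamini-Hochberg adjustment over all genes tested. The SE was taken as |log2 change| over √F, and 95% intervals use it with the fit's degrees of freedom. Replicate libraries varied more than counting error alone gives (chi-square of 2.1 to 7.94 for each gene on average), and none were merged.

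The members, the lists and the alternatives were chosen with earlier results of these data known. Named genes are the 10 members, UGCG, up to 3 genes of each list per direction and comparison with control (mean of at least 1 CPM), of which a part is given, and the 5 nearest patterns to GAL3ST1. Alternatives were other scalings, DESeq2 1.42.0, limma 3.58.1 voom, other filters, only the groups compared, a replicate block, each library left out, and leaving out 3 libraries (control 1, 20 µM library 3 and 30 µM library 3) that an earlier analysis found to deviate together. The scalings were also run for the pathway lists, an alternative chosen after seeing the data.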

Additional observations from a re-analysis of the deposited data

How the results depend on the processing

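Under 19 alternatives, 600 of 624 log2 changes of the 10 genes and UGCG kept their direction and their side of the threshold, 15 were no longer past it, 3 became so and 6 turned sign. A mean of at least 50 counts left PAPSS2 without a value. The changes of GAL3ST1 at 30 µM against control ran from log2 -1.42 to -1.12 and were past the test under every alternative run.

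The count of members higher at 30 µM against control was 3, and 0 with library size alone, which gave 5 lower. Upper-quartile factors gave 2 higher and 5 lower there. Over all genes, library size alone gave 3530 higher and 8022 lower at 30 µM against control, beside 5192 and 5515 with TMM, and 3029 higher and 7690 lower at 30 µM against 20 µM, beside 4942 and 5099. The count of members lower at 20 µM against control was 0, and 1 without the 3 libraries that deviate together, when PAPSS1 passed (log2 -0.14, adjusted p = 0.0495). With all libraries PAPSS1 had an unadjusted p of 0.0508. At 30 µM against 20 µM, 0 members were higher with edgeR, DESeq2 or limma voom.

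SUMF2 at 30 µM against 20 µM, log2 0.01, turned sign with upper-quartile factors (-0.069), library size alone (-0.186), a mean of at least 50 counts (-0.011) and without the 3 libraries (-0.018), and ran from -0.011 to 0.02 when a library was left out. SUMF1 at 30 µM against control turned sign with library size alone (-0.12, adjusted p = 0.123). The cause was not tested, beyond the shift of all genes that library size alone brings.

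Leaving out each library in turn gave 5 members higher and 0 lower at 20 µM against control, 2 to 3 higher and 4 lower at 30 µM against control, and 0 higher and 6 to 8 lower at 30 µM against 20 µM. The replicate number as a block gave 5 higher and 0 lower, 3 higher and 4 lower, and 0 higher and 8 lower. Deviations of libraries with the same number correlated from -0.18 to 0.14 between 20 µM and control, from -0.20 to 0.12 between 30 µM and control, and from 0.08 to 0.35 between 30 µM and 20 µM. Not every pair exceeded 0.1 in any of these, so the numbers were not taken to pair the libraries. Depth limits PAPSS2 most, with 12 to 28 counts a library.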

Other observations

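Among 10137 other protein-coding genes with a mean of at least 5 CPM, the 5 whose log2 CPM followed that of GAL3ST1 most closely over the 9 libraries were MAB21L4, THEM6, CABIN1, RHBG and ATP6V0E2. Their Pearson correlations with GAL3ST1 were 0.998, 0.997, 0.996, 0.996 and 0.996, given as a description, since the points fall in 3 groups and share libraries and scaling. MAB21L4 was at 2.56 ± 0.367 CPM at 30 µM and 14.8 ± 1.76 CPM at 20 µM, against 11.8 ± 0.377 CPM in controls (SD, n = 3). RHBG, an ammonia channel of the Rh family, was at 62.5 ± 2.35 CPM at 30 µM and 141 ± 3.37 CPM at 20 µM, against 124 ± 3.21 CPM in controls. ATP6V0E2, a subunit of the proton pump V-ATPase, was at 207 ± 5.26 CPM at 30 µM and 370 ± 16.3 CPM at 20 µM, against 340 ± 8.66 CPM in controls. Among the members, SLC35B3 followed GAL3ST1 most closely (r = 0.94 over 9 libraries), ahead of SLC26A1 (0.87) and PAPSS1 (0.85).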
